A study of Homo sapiens with 54 samples.

Results

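PEO1 is an established line of human high-grade serous ovarian carcinoma cells that responds to platinum drugs. The comparison described here set PEO1 cultures after 8 h in 80 µM carboplatin against untreated PEO1 cultures, with 3 libraries in each group, 6 of the 54 libraries of the series. The members were taken by the line, time and replicate in the column names. The libraries were made from 200 ng of total RNA with a stranded kit, after 48 h in RPMI medium with serum and then treatment, and the study asked how platinum-sensitive and resistant ovarian lines respond to the drug over time. The labels put the untreated cultures at time 0, but the text of the series speaks of vehicle-treated controls taken at 24 h, and they are called untreated here. The 3 treated cultures carry the culture numbers 12, 13 and 13 to 14, and the untreated ones 9, 10 and 11, so treatment and culture number cannot be told apart. PEO1 at 24 h in the same dose served as 1 point of comparison (3 libraries, with the culture numbers of the 8 h libraries). The resistant line PEO4 from the same patient served as another (3 libraries at 8 h and 3 untreated). The PEO4 8 h cultures had the same dose and the culture numbers 9, 10 and 11, and untreated PEO4 had 6, 7 and 8. Treatment and culture number cannot be told apart in PEO4 either.

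Carboplatin is a platinum compound that binds purine bases and crosslinks DNA. Such adducts are known to stop DNA and RNA polymerases, and cells answer them with nucleotide excision repair, the Fanconi anaemia and homologous recombination pathways, checkpoint signalling and, where p53 works, its target genes. When transcription slows, short-lived mRNAs decline before stable ones.

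Values were TPM, a share of all transcripts adjusted for their length, and each library was rescaled by the median ratio of genes seen in every library. The 8 h libraries differed from each other more than the untreated ones did. The 8 h libraries listed 13890, 14281 and 8947 genes above 0 TPM, against 14084, 15786 and 15911 in the untreated libraries. The third 8 h library is the only one of the 6 under 12000 genes, and the comparison was made with it (all-library fit) and without it and the 11 other such libraries of the series (filtered fit). Changes from 1 fit alone are named by that fit. The second 8 h library stood apart in another way. The RNA components of the RNA-processing enzymes RNase MRP and RNase P, RMRP and RPPH1, took 21.1%, 41.2% and 8.98% of TPM in the 8 h libraries and 8.80%, 13.9% and 11.3% in the untreated libraries (exact permutation test, two-sided, p = 0.3, where 3 against 3 cannot go below 0.1). The scaling factors were 0.778, 0.170 and 0.711 in the 8 h libraries and 1.66, 1.54 and 1.54 in the untreated libraries, so that values of the second 8 h library were multiplied most.

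Epithelial markers were high in all 6 libraries, and defining markers of other cell types were mostly at or near 0. The summed rescaled TPM of 6 epithelial markers, keratins and EPCAM among them, ranged from 4430 to 7500 in the 8 h libraries and from 5470 to 8770 in the untreated libraries. Of 5 Müllerian markers, SOX17 was listed at 0 in all 6 libraries, and their sum was 32.7 to 57.6 in the 8 h libraries and 119 to 172 in the untreated libraries. Leukocyte markers came to 40.4 to 59.3 at 8 h and 46.1 to 70.4 in untreated libraries, carried by CD68 and CD14, while 6 of 9, among them CD3D, CD3E and MS4A1, were at 0 throughout. Fibroblast markers summed to between 0 and 0.45 at 8 h and between 1.54 and 10.8 in untreated libraries, and 5 of 7, DCN and LUM included, were at 0 in all 6. Endothelial markers summed to between 0 and 1.71 at 8 h and between 6.42 and 20.1 in untreated libraries, nearly all of it CDH5.

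**Figure D1:**
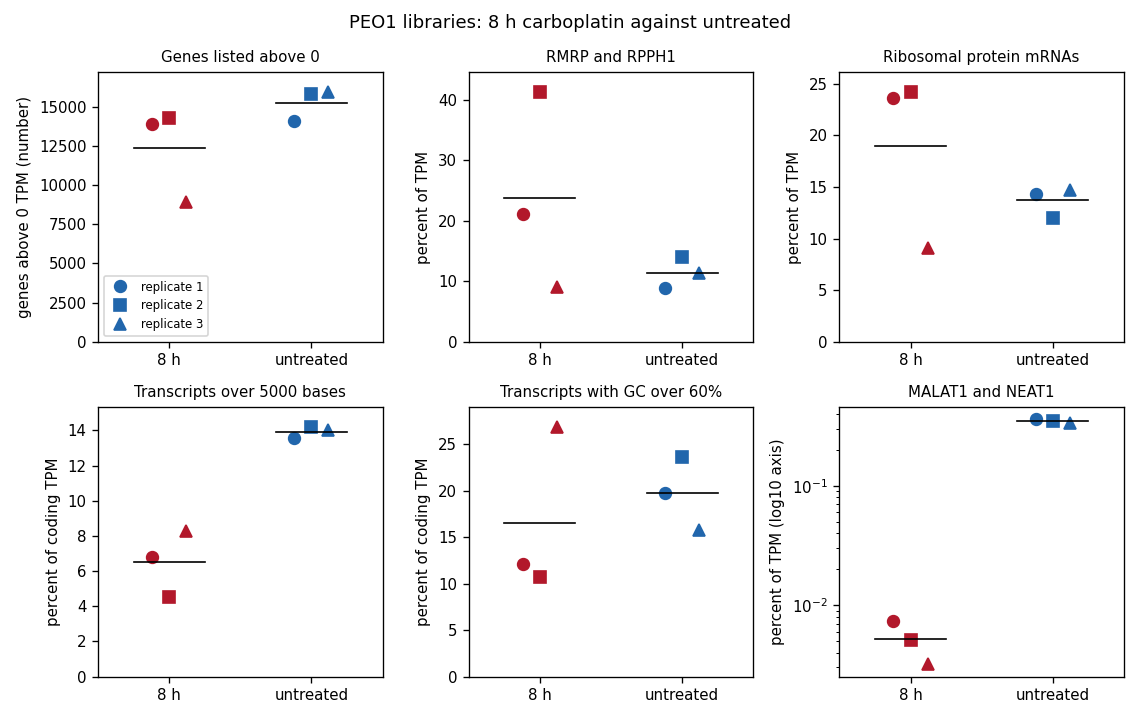
Make-up of the 6 PEO1 libraries, 8 h on the left and untreated on the right of each panel, with 1 symbol per library and a line at the group mean. The y axes give the number of genes above 0 TPM or the percent of TPM, on a log10 axis for MALAT1 and NEAT1. The third 8 h library (triangle) lies away from the other 2 in genes listed, ribosomal protein mRNAs and transcripts of high GC, whereas transcripts over 5000 bases and MALAT1 with NEAT1 were lower in all 3 8 h libraries than in any untreated one.

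Far more genes were called lower than higher after 8 h when all libraries were used. Of 18262 genes tested with limma on log2(rescaled TPM + 1), 816 were called at a Benjamini-Hochberg adjusted p under 0.05, which is 4.47%, with 122 higher at 8 h (0.668%) and 694 lower (3.80%). The filtered fit called 3145 higher (17.5%) and 4406 lower (24.5%) of 18013 genes. Between them, 111 genes were called higher and 692 lower in both fits, and none was called in opposite directions. Without untreated replicate 1 the all-library count was 386, and without untreated replicate 2 it was 333. A model of the 6 libraries alone called 0 genes, with 2650 at an unadjusted p under 0.05, where the calls above use the spread estimated over all 18 groups of the series. Without rescaling, the median change of all genes moved to -1.21 from -0.14, and the all-library split became 27 higher (0.148%) and 4377 lower (24.0%), and the filtered one 386 higher (2.14%) and 8529 lower (47.3%). Directions below are therefore relative to the rescaled middle of all genes.

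The clearest change was a loss of the nuclear noncoding RNAs MALAT1 and NEAT1. MALAT1, an abundant RNA of nuclear speckles, had 91.4, 297 and 35.9 rescaled TPM in the 8 h libraries, against 1936, 2057 and 2043 in the untreated libraries. No 8 h library came near the untreated range, and the log2 change was -4.32 ± 0.93 (SE, adjusted p = 0.0034) with all libraries and -3.98 ± 0.41 (adjusted p = 3.58e-08) in the filtered fit. NEAT1, the scaffold of paraspeckles, had 3.87, 1.41 and 8.99 rescaled TPM at 8 h and 232, 215 and 152 in untreated cultures. It changed by -5.33 ± 1.05 (adjusted p = 0.00145) and -6.08 ± 0.48 (adjusted p = 8.46e-10). Before any rescaling the pair made up 0.00741%, 0.00507% and 0.00319% of TPM at 8 h, against 0.360%, 0.351% and 0.338% in untreated libraries (exact permutation p = 0.1, the lowest possible). At 24 h MALAT1 was at 215, 335 and 223 rescaled TPM and NEAT1 at 8.52, 10.2 and 7.44, still far under the untreated range. The whole list of 28 nuclear and host-gene noncoding RNAs did not move one way. With all libraries 1 was called higher and 3 lower, against 0.668% and 3.80% of all genes. In the filtered fit 10 were higher and 8 lower, against 17.5% and 24.5% of all genes. SNHG5, a host gene of snoRNAs, stood at 1118, 6754 and 176 rescaled TPM at 8 h, against 62.0, 140 and 244 in untreated libraries, and was called in the filtered fit alone (log2 change 4.03 ± 0.53, adjusted p = 1.11e-06, and 0.11 with all libraries).

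Genes of chromatin regulators with long mRNAs were low at 8 h. Of 40 chromatin regulators on a list of long genes, 15 were called lower and 0 higher with all libraries, and 37 lower and 0 higher in the filtered fit. The shares of all genes called lower were 3.80% and 24.5%, and 0.668% and 17.5% were higher. Median changes of these regulators were -1.89 and -1.96, against -0.14 and -0.15 over all genes tested. They made up 0.0399%, 0.00817% and 0.0358% of TPM at 8 h and 0.276%, 0.279% and 0.228% in untreated libraries. The histone methyltransferase subunit SETD1B had 0.32, 0.41 and 0 rescaled TPM at 8 h and 13.7, 26.1 and 11.9 in untreated libraries, and the remodeller EP400 had 0.53, 1.82 and 0 at 8 h and 16.8, 22.9 and 17.1 in untreated libraries. Both were called in both fits and neither overlapped between the groups, which their choice among called genes favours. With all libraries the log2 changes were -3.81 ± 0.86 (adjusted p = 0.00553) for SETD1B and -3.60 ± 0.70 (adjusted p = 0.0013) for EP400. In the filtered fit the changes were -3.78 ± 0.46 for SETD1B and -3.48 ± 0.34 for EP400, and after correction for transcript GC and length, described below, they were -1.36 and -1.23. Their transcripts are long, with a median of 9876 bases over the list. Coding genes in general with transcripts over 8000 bases had medians of -1.02 with all libraries and -0.96 in the filtered fit. After the correction the filtered median was -0.71 for the list, -0.16 for coding genes over 8000 bases and 0.08 over all genes.

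Among splicing factors the list was mixed, with 0 called higher and 1 lower of 29 with all libraries. In the filtered fit 9 were higher and 7 lower, where 17.5% of all genes were higher and 24.5% lower. After the GC and length correction 4 were higher and 11 lower in that fit, against 20.5% and 16.9% of all genes. The 3 members with serine- and arginine-rich stretches that the naming rule picked were low at 8 h. SRRM2, a scaffold protein of nuclear speckles, had 4.55, 10.7 and 8.78 rescaled TPM at 8 h, against 179, 220 and 125 in untreated libraries. Its log2 change was -4.31 ± 0.97 (adjusted p = 0.00535) with all libraries and -4.75 ± 0.44 (adjusted p = 8.51e-09) in the filtered fit. SRRM1 had 16.3, 20.4 and 21.3 at 8 h and 129, 132 and 67.4 in untreated libraries, and SON had 14.7, 21.8 and 6.90 at 8 h and 57.2, 54.5 and 72.3 in untreated libraries. Both were called in the filtered fit (log2 changes -2.82 and -2.07) but not with all libraries (adjusted p = 0.137 and 0.238).

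**Figure D2:**
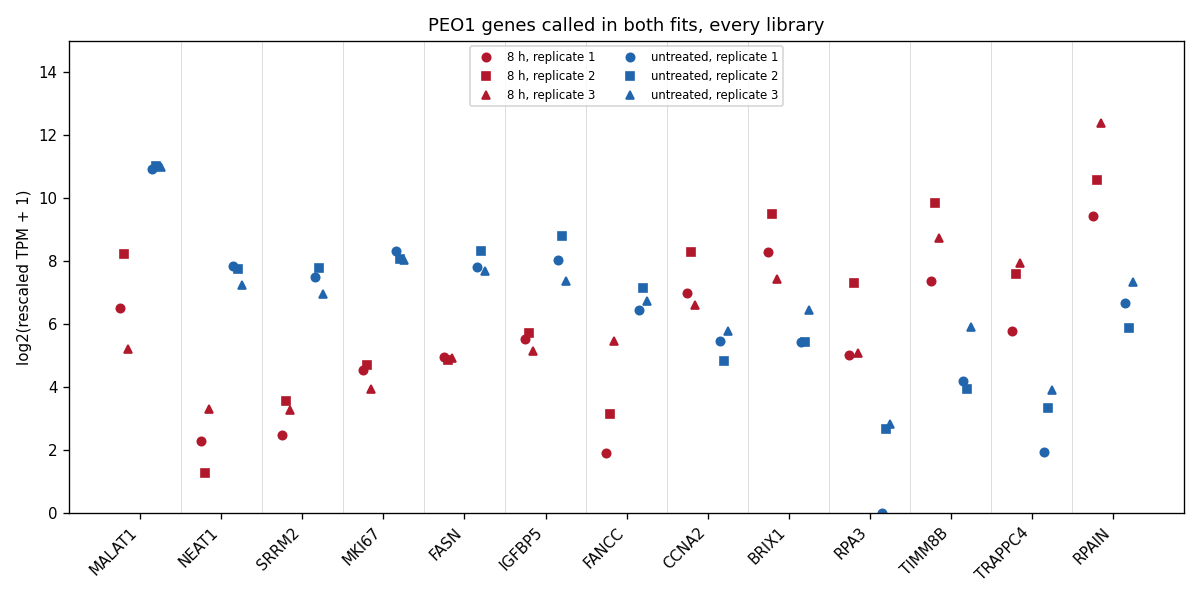
Levels of 13 PEO1 genes called in both fits, as log2(rescaled TPM + 1), with the 8 h libraries left and the untreated libraries right of each gene and 1 symbol per replicate. The first 7 genes are lower in every 8 h library than in every untreated library, and the last 6 are higher in every 8 h library. All were chosen as called on these same libraries, which favours such separation.

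The 12 largest falls that the naming rule picked included genes of little known function in these cells. ZNF750, a zinc finger factor of epithelial differentiation, was listed at 0, 0.59 and 0 rescaled TPM at 8 h, against 42.8, 39.8 and 58.0 in untreated libraries (log2 change -5.34 ± 0.80, adjusted p = 4.44e-05, with all libraries and -5.37 ± 0.52 in the filtered fit). GPR132, a receptor of the G protein-coupled class, had 0.91, 1.88 and 82.5 at 8 h and 271, 403 and 161 in untreated libraries. Here the third 8 h library lay between the other 8 h libraries and the untreated ones. EGR1, an immediate early transcription factor, had 0, 4.59 and 0 at 8 h and 57.8, 34.2 and 15.1 in untreated libraries (log2 change -4.18 ± 1.13, adjusted p = 0.0224, with all libraries and -4.05 ± 0.71 in the filtered fit). SPIN2A was at 0 in all 3 8 h libraries and at 28.2, 14.5 and 13.4 in untreated libraries. PSAPL1, TAC4, ASIP, the noncoding MIR181A2HG and the snoRNA SNORA70G completed the 12 with MALAT1, NEAT1 and SRRM2. SNORA70G was at 0 in all 8 h libraries but at 273, 27.2 and 0 in the untreated ones, so those groups overlapped.

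Among the 12 largest rises the highest value was in the second or the third 8 h library for every gene. TRAPPC4, a subunit of a vesicle-tethering complex, had 53.6, 193 and 244 rescaled TPM at 8 h, against 2.82, 9.12 and 14.1 in untreated libraries (log2 change 4.04 ± 0.67, adjusted p = 0.000195, with all libraries and 3.26 ± 0.48 in the filtered fit). RPA3, the smallest subunit of the single-strand DNA binding complex RPA, which serves replication and excision repair, had 31.7, 157 and 33.3 at 8 h and 0, 5.36 and 6.07 in untreated libraries (3.98 ± 0.92, adjusted p = 0.00657, with all libraries and 3.995 ± 0.65 in the filtered fit). RPAIN, which carries RPA into the nucleus, had 696, 1527 and 5296 at 8 h and 100.5, 57.9 and 162 in untreated libraries, and 49.0% of its 75-base words also occur in transcripts of other genes. FAM175A, which encodes the Abraxas subunit of the BRCA1-A complex, had 62.9, 176 and 735 at 8 h and 7.92, 3.30 and 26.5 in untreated libraries. Groups did not overlap for any of these, but picking the largest rises called on these same libraries favours such separation. TIMM8B and IMMP1L, which serve import and processing of mitochondrial proteins, AK6 and DCAF13 in ribosome maturation, PTS in biopterin synthesis, the selenoprotein gene SELT, EFCAB10 and the noncoding C10orf91 completed the 12. SELT had 76.8, 473 and 14.5 at 8 h and 0.90, 4.71 and 21.0 in untreated libraries, so the third 8 h library fell within the untreated range. After the GC and length correction EFCAB10, AK6 and IMMP1L were no longer called in the filtered fit (adjusted p = 0.162, 0.0681 and 0.102), and C10orf91 was not among the genes corrected.

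No member of the 12 was called between 24 h and 8 h in either fit. TRAPPC4 stood at 49.1, 60.04 and 39.8 rescaled TPM at 24 h, RPA3 at 40.6, 41.1 and 28.2 and RPAIN at 250, 281 and 204. In the first replicate RPA3, AK6, PTS and SELT were higher at 24 h than at 8 h (40.6 against 31.7 for RPA3, 86.95 against 53.8 for AK6, 87.6 against 74.03 for PTS and 92.7 against 76.8 for SELT). In the second replicate each of these was lower at 24 h (41.1 against 157 for RPA3, 104.7 against 234.5 for AK6, 72.1 against 272 for PTS and 114 against 473 for SELT). In the third, RPA3, AK6 and PTS were lower at 24 h and SELT was higher (78.2 against 14.5).

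Ribosomal protein mRNAs had the highest median change of the lists with all libraries and the second highest in the filtered fit, and their count of calls rested on which 8 h libraries were used. Of all genes tested 0.668% were called higher and 3.80% lower with all libraries, and 17.5% and 24.5% in the filtered fit. Of the 79 ribosomal protein genes 4 were called higher and 0 lower with all libraries. In the filtered fit 77 were called higher and 0 lower, and the median changes were 2.06 and 2.52. Unscaled, they made up 23.6%, 24.2% and 9.11% of TPM at 8 h, against 14.3%, 12.02% and 14.7% in untreated libraries (exact permutation p = 0.4). The first pair of 8 h libraries was thus above, and the third below, all untreated libraries. The members with the largest changes were RPL21, RPS3A, RPS21 and RPS14. RPS21 of the small subunit had 2416, 18800 and 1691 rescaled TPM at 8 h, against 367, 328 and 748 in untreated libraries (filtered 3.53 ± 0.68, adjusted p = 0.000124, and 0.159 with all libraries). Without rescaling the filtered fit called 45 higher and 4 lower, and without the second 8 h library as well, which leaves 1 at 8 h whose spread is taken from the other groups, 58 were higher and 0 lower, against 8.71% of all genes called higher there. RPL26, RPL27A and RPL37A, all of the large subunit, were 3 of the 4 called higher with all libraries, and the other is not named here. These 3 were called in both fits and are named for that, after their values were seen. RPL26 had 7635, 41360 and 5179 rescaled TPM at 8 h, against 1297, 1237 and 2503 in untreated libraries (2.89 ± 0.88, adjusted p = 0.0457, with all libraries and 3.10 ± 0.62 in the filtered fit). RPL27A had 417, 2205 and 553 at 8 h and 103.5, 94.8 and 127 in untreated libraries (2.88 ± 0.78, adjusted p = 0.0238, with all libraries and 2.76 ± 0.53 in the filtered fit). RPL37A had 10170, 41730 and 6986 at 8 h and 1832, 1509 and 3130 in untreated libraries. In these 3 genes every 8 h library exceeded every untreated one, which their choice by the calls favours. Since processed pseudogenes hold copies of these mRNAs, 8 of the 79 had at least 50% of their 75-base words in other genes' transcripts, and the values of members such as RPL21 and RPS3A are uncertain.

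Mammalian ribosomal protein genes share a start region in which transcription begins inside a run of pyrimidines, the TOP tract that links their translation to nutrient signalling. The start regions of these 3 called members, from the RefSeq table, are shown because they carry this shared feature. Each holds the 60 bases before the start and the first 20 bases of the transcript (GRCh38.p14, 5′ to 3′ on the gene's strand), with the tract in capitals. They lie at chr17:8383174-8383253 on the minus strand (RPL26), chr11:8682732-8682811 on the plus strand (RPL27A) and chr2:216498784-216498863 on the plus strand (RPL37A).
RPL26: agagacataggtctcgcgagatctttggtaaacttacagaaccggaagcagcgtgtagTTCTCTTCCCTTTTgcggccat
RPL27A: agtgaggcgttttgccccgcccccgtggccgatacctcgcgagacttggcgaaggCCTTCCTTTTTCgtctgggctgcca
RPL37A: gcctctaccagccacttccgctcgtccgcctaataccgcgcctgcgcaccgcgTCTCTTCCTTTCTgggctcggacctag
A run of at least 8 bases that are each C or T, reaching within 10 bases of the start on the gene's own strand, was present in 50 of the 63 ribosomal protein promoters in the table (79.4%) and in 4099 of 27305 promoters in all (15%). On the other strand 1 of the 63 and 12.4% of all promoters held one. The oxidative phosphorylation genes, which were also high at 8 h, held such a run in 5 of 37 promoters (13.5%), and the chromatin regulators in 8 of 29 (27.6%). A match describes the letters in this window and shows no factor acting there.

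Oxidative phosphorylation and proteasome genes were also mostly called higher in the filtered fit. Of 48 nuclear genes for respiratory chain subunits, 1 was called higher with all libraries and 42 in the filtered fit, with 0 lower in either and medians of 1.57 and 2.43. The shares of all genes called higher were 0.668% with all libraries and 17.5% in the filtered fit, and 3.80% and 24.5% were lower. ATP5G3, a subunit of the ATP synthase ring, had 31.7, 164 and 38.5 rescaled TPM at 8 h, against 6.05, 4.69 and 14.3 in untreated libraries (2.81 ± 0.85, adjusted p = 0.0457, with all libraries and 2.74 ± 0.47 in the filtered fit). NDUFA9, a subunit of complex I, had 151, 592 and 11 at 8 h and 12.3, 6.64 and 40.3 in untreated libraries, and was called in the filtered fit alone. Of 31 proteasome genes, 0 were called with all libraries and 25 were higher in the filtered fit (median 2.10). The catalytic-core member PSMB1 had 173, 566 and 41.6 at 8 h and 22.8, 19.7 and 63.9 in untreated libraries. Without rescaling the filtered counts were 19 higher and 5 lower for oxidative phosphorylation and 11 higher and 4 lower for the proteasome. Of all genes 2.14% were higher and 47.3% lower there. As a share of unscaled TPM, oxidative phosphorylation mRNAs took 0.784%, 0.733% and 0.201% at 8 h and 0.510%, 0.454% and 0.602% in untreated libraries (exact permutation p = 0.9). Proteasome mRNAs took 0.557%, 0.380% and 0.164% at 8 h and 0.340%, 0.271% and 0.416% in untreated libraries (exact permutation p = 0.9). In both lists the third 8 h library was below all untreated libraries.

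Histone genes, whose short mRNAs are mostly not polyadenylated and are made in S phase, also lay on the higher side. Of 55, 2 were called higher with all libraries and 48 in the filtered fit, with 0 lower in both and medians of 1.85 and 2.06. The shares of all genes called higher were 0.668% and 17.5%, and 3.80% and 24.5% were lower. HIST1H3G had 1129, 5619 and 1672 rescaled TPM at 8 h, against 328, 161 and 387 in untreated libraries (3.00 ± 0.78, adjusted p = 0.018, with all libraries and 2.82 ± 0.71 in the filtered fit). As a share of TPM histones took 5.39%, 4.42% and 5.83% at 8 h and 5.12%, 4.46% and 4.21% in untreated libraries. Without rescaling 9 were higher and 4 lower in the filtered fit, against 2.14% and 47.3% of all genes. Of the 55, 7 shared at least 50% of their words with other genes, so single members are uncertain.

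Small structural RNAs, of which 14 of a list of 34 were tested, had the highest median in the filtered fit, 2.86, against 1.45 with all libraries. With all libraries 0 were called. In the filtered fit 9 were higher and 0 lower, against 17.5% and 24.5% of all genes. After the GC and length correction 5 were higher and 2 lower there, against 20.5% and 16.9% of all genes. RMRP, described above as a share of TPM, was called in the filtered fit alone (3.13 ± 0.81, adjusted p = 0.00256, and 0.0879 with all libraries).

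**Figure D3:**
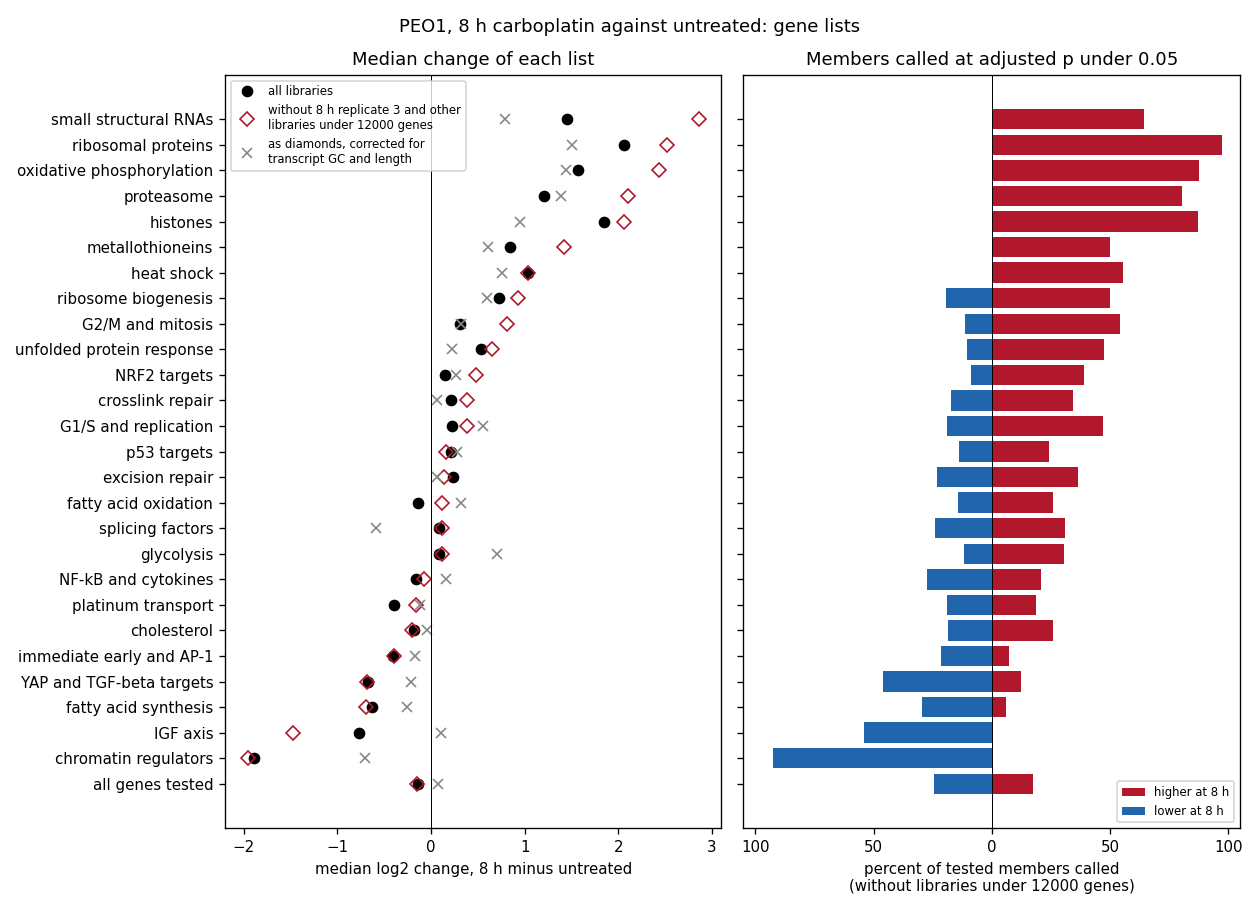
Gene lists in PEO1, 8 h against untreated. The left panel gives the median log2 change of each list with all libraries, in the filtered fit and in the filtered fit corrected for transcript GC and length, and the right panel gives the percent of tested members called higher or lower in the filtered fit. Small structural RNAs, ribosomal proteins, oxidative phosphorylation, proteasome and histones have the highest medians in the filtered fit and chromatin regulators the lowest, while the bottom row shows all genes tested.

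Changes at 8 h moved with the length and GC content of the transcript. Among 9656 coding genes with a mean of at least 5 rescaled TPM, those with transcripts under 1000 bases had a median log2 change of 1.43 with all libraries and 1.93 in the filtered fit. Those over 8000 bases had medians of -1.02 and -0.96. By GC, the medians in the filtered fit ran from 1.06 under 40% to -1.40 over 65%, and with all libraries from 0.51 to -0.72. Both differences were also seen when genes were classed by length and GC together. Transcripts under 2000 bases with GC under 45% had a filtered median of 2.23 (414 genes), and transcripts over 4000 bases with GC over 55% had one of -2.0 (688 genes). The genomic span of the gene, which includes introns, showed a smaller range, with filtered medians of 0.42 under 5000 bases and -0.67 over 200000 bases. Within transcripts over 4000 bases and under 45% GC, genes under 50000 bases in the genome had a filtered median of 0.84 and those over 100000 bases one of -0.21. This was the widest gap of the length and GC classes. For transcripts over 4000 bases the medians were -0.64 and -1.38 at 45 to 55% GC and -1.93 and -2.16 over 55% GC. For transcripts under 2000 bases at 45 to 55% GC they were 1.56 and 1.44.

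The libraries differed in this respect. For transcripts under 40% GC, the median difference from the untreated mean was 0.97, 1.87 and -1.26 in the 8 h libraries and -0.07, -0.38 and 0.48 in the untreated libraries. For those over 65% GC it was -1.12, -1.06 and 0.25 in the 8 h libraries and -0.01, 0.46 and -0.43 in the untreated libraries. The third 8 h library thus sloped against the other 2 on GC. On length all 3 8 h libraries sloped the same way: medians for transcripts over 8000 bases were -0.80, -0.44 and -1.65 at 8 h and -0.05, -0.08 and 0.14 in untreated libraries. After each library was corrected for GC and length, 27 genes were called higher and 59 lower of 10780 with all libraries, and 2146 higher and 1770 lower of 10493 in the filtered fit. Of the 5605 filtered calls that could be compared, 2819 were called the same way after correction and 56 the opposite way. The corrected filtered counts were 68 higher and 0 lower for ribosomal proteins, 37 and 0 for oxidative phosphorylation, 21 and 1 for the proteasome, 23 and 1 for histones and 0 and 20 for chromatin regulators. Of all genes 20.5% were higher and 16.9% lower there. With all libraries the corrected fit called 2 ribosomal protein genes higher and 1 chromatin regulator lower. It called 0 oxidative phosphorylation, proteasome or histone genes, and of all genes 0.250% higher and 0.547% lower. MALAT1, NEAT1 and SRRM2 were still called lower after the correction in the filtered fit. Whether the slopes came with the treatment or with the culture numbers cannot be told apart.

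**Figure D4:**
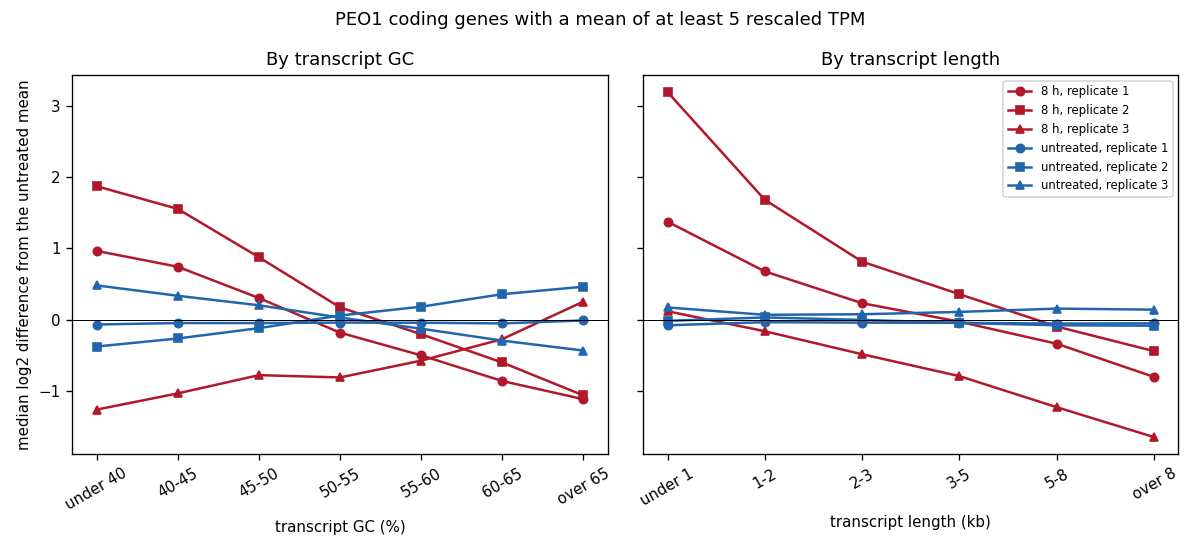
Median log2 difference of each PEO1 library from the untreated mean, for coding genes in classes of transcript GC (left) and transcript length (right), 1 line per library. The 8 h libraries (red) fall from short to long transcripts in all 3 cases, while on GC the third 8 h library rises where the other 2 fall.

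The p53 target list showed no common direction. None of its 29 members was called with all libraries, and 7 were higher and 4 lower in the filtered fit, with medians of 0.21 and 0.16, against 17.5% of all genes higher and 24.5% lower in that fit. CDKN1A, which encodes the cell cycle inhibitor p21, was low in both groups, with 0.64, 1.77 and 0 rescaled TPM at 8 h and 6.16, 1.496 and 0.90 in untreated libraries (adjusted p = 0.636 and 0.367 in the filtered fit). MDM2, the ubiquitin ligase of p53, had 19.8, 44.1 and 2.25 at 8 h and 17.4, 7.56 and 16.3 in untreated libraries (adjusted p = 1.0 and 0.0608). PMAIP1, which encodes the proapoptotic NOXA, had 36.2, 135 and 18 at 8 h and 16.8, 6.54 and 13.3 in untreated libraries, and was called higher in the filtered fit (2.15 ± 0.46, adjusted p = 0.000439, and 0.242 with all libraries). Corrected for GC and length, the filtered change of PMAIP1 was 0.49 (adjusted p = 0.385). That of MDM2 was then 1.27 ± 0.275 (adjusted p = 0.000628), so MDM2 was called higher after the correction alone. The lesion-bypass polymerase POLH had 2.30, 4.59 and 22.5 at 8 h and 22.0, 17.6 and 17.3 in untreated libraries, and fell in the filtered fit (-2.51 ± 0.30, adjusted p = 2.22e-07, and 0.275 with all libraries).

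Repair genes moved in both directions. Of 35 crosslink repair genes, 1 was called lower and 0 higher with all libraries, and 12 were higher and 6 lower in the filtered fit. The shares of all genes were 0.668% higher and 3.80% lower with all libraries and 17.5% and 24.5% in the filtered fit, and the same shares apply to the excision repair list. The gene called in both was FANCC of the Fanconi core complex, with 2.75, 7.95 and 43.6 rescaled TPM at 8 h, against 87.5, 140.5 and 105.3 in untreated libraries (-3.27 ± 0.97, adjusted p = 0.0408, and -4.58 ± 0.36 in the filtered fit). UBE2T, the conjugating enzyme that modifies FANCD2, had 164, 878 and 21.0 at 8 h and 23.1, 17.4 and 44.2 in untreated libraries (filtered 3.43 ± 0.59, adjusted p = 2.91e-05, and 0.306 with all libraries). BRCA1 had 27.5, 27.3 and 2.32 at 8 h and 29.1, 21.9 and 40.4 in untreated libraries, and BRCA2 had 2.26, 4.47 and 0 at 8 h and 2.99, 1.33 and 3.82 in untreated libraries. Neither was called in either fit. Of 30 excision repair genes, RPA3 was higher and POLE lower with all libraries, and 11 were higher and 7 lower in the filtered fit. POLE, the catalytic subunit of DNA polymerase epsilon, had 6.45, 8.18 and 2.05 at 8 h and 33.4, 34.2 and 28.3 in untreated libraries (-2.47 ± 0.69, adjusted p = 0.0272, with all libraries and -2.32 ± 0.30 in the filtered fit). The filtered change of POLE after the GC and length correction was -0.35 (adjusted p = 0.161). ERCC1, the partner of the XPF nuclease, had 247, 218 and 3186 at 8 h and 264, 224 and 213 in untreated libraries, a difference that came from the third 8 h library alone, and was not called (adjusted p = 0.447 and 0.531).

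Cell cycle genes were called in both directions, with MKI67 lower and CCNA2 higher in both fits. MKI67, a long mRNA that marks cycling cells, had 22.6, 25.1 and 14.4 rescaled TPM at 8 h, against 316, 266 and 263 in untreated libraries (-3.73 ± 0.77, adjusted p = 0.00229, with all libraries and -3.87 ± 0.34 in the filtered fit). CCNA2, the cyclin of S and G2 phase, had 126, 311 and 97.3 at 8 h and 43.4, 27.4 and 53.8 in untreated libraries (1.94 ± 0.54, adjusted p = 0.0272, with all libraries and 1.90 ± 0.27 in the filtered fit). Both were called in both fits and neither overlapped between the groups, which their choice among called genes favours. CCNB1 had 345, 999 and 55.8 at 8 h and 56.7, 40.6 and 95.8 in untreated libraries, and CDK1, its kinase, had 202, 710 and 20.2 at 8 h and 32.3, 22.6 and 42.5 in untreated libraries. These 2 were called in the filtered fit alone (2.88 ± 0.36 and 3.17 ± 0.38). The transcripts of MKI67, CCNA2 and CCNB1 have 12678, 2797 and 2169 bases. After the GC and length correction their filtered changes were -2.22, 0.81 and 1.67, all still called. Of the 35 G2 and mitosis genes, 1 was higher and 1 lower with all libraries and 19 were higher and 4 lower in the filtered fit. Of 32 G1/S and replication genes, 0 were higher and 1 lower with all libraries and 15 higher and 6 lower in the filtered fit. In that fit 17.5% of all genes were higher and 24.5% lower. In the second list CHAF1A, a histone chaperone of replication forks, was called lower in both, with 23.2, 12.9 and 5.05 at 8 h and 43.6, 41.9 and 47.5 in untreated libraries. CHAF1A was not called in the filtered fit after the GC and length correction (adjusted p = 0.121). The corrected filtered counts were 12 higher and 2 lower of 35 G2 and mitosis genes and 12 and 1 of 31 G1/S and replication genes. Of all genes 20.5% were higher and 16.9% lower there.

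Inflammatory genes were called in the filtered fit alone. CXCL8 had 22.3, 125 and 0 rescaled TPM at 8 h, against 1.92, 0.62 and 2.26 in untreated libraries (4.10 ± 0.47, adjusted p = 1.55e-07, and 0.24 with all libraries). IL6 had 36.7, 69.6 and 0 at 8 h and 2.86, 0 and 8.40 in untreated libraries (3.63 ± 0.67, adjusted p = 7.19e-05, and 0.448 with all libraries). In both genes the third 8 h library was listed at 0. Others of the list went the other way: LIF had 1.73, 5.42 and 4.22 at 8 h and 14.3, 25.3 and 18.9 in untreated libraries (filtered -2.56 ± 0.38, adjusted p = 4.99e-06, and 0.0861 with all libraries). In all, 6 of 29 were higher and 8 lower in the filtered fit, near the shares of all genes (17.5% higher and 24.5% lower). Of 28 immediate early and AP-1 genes, 2 were higher and 6 lower in that fit, EGR1 being the one called with all libraries.

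No heat shock, NRF2, integrated stress response or metallothionein gene was called with all libraries, and the counts here are from the filtered fit, where 17.5% of all genes were higher and 24.5% lower. Of 18 heat shock genes 10 were higher and 0 lower. HSPA8, the constitutive HSP70, had 3830, 7320 and 153 rescaled TPM at 8 h, against 551, 456 and 775 in untreated libraries (2.81 ± 0.30, adjusted p = 5.92e-08, and 0.654 with all libraries). Of 23 NRF2 targets 9 were higher and 2 lower. NQO1, a quinone reductase, had 147, 428 and 107 at 8 h and 38.3, 51.4 and 56.2 in untreated libraries, so all 8 h libraries exceeded the untreated ones (1.98 ± 0.35, adjusted p = 4.66e-05, and 0.245 with all libraries). Of 25 integrated stress response genes 5 were higher and 5 lower, near the shares of all genes. The metallothioneins, small proteins that bind metals and platinum, gave 4 higher and 0 lower of 8. MT1E had 644, 1783 and 0 at 8 h and 218, 130 and 325 in untreated libraries, which gave -1.01 with all libraries (adjusted p = 0.844) and 1.97 ± 0.35 in the filtered fit (adjusted p = 4.47e-05). Its corrected change in that fit was 0.65 (adjusted p = 0.132).

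Platinum and copper transporters gave 3 higher and 3 lower of 16 in the filtered fit, near the shares of all genes (17.5% and 24.5%), and 0 calls with all libraries. SLC31A1, the copper importer CTR1 studied for platinum uptake, had 14.5, 29.1 and 0 rescaled TPM at 8 h and 3.94, 6.40 and 8.27 in untreated libraries (filtered 1.27 ± 0.34, adjusted p = 0.00288, and 1.0 with all libraries). The copper exporters ATP7A and ATP7B were at or under 3.59 in every 8 h library and at or under 1.56 in every untreated one and were not called. ABCC1, an efflux pump, had 5.33, 5.94 and 7.55 at 8 h and 28.98, 38.6 and 22.5 in untreated libraries. It was lower in all 3 8 h libraries (filtered -2.51 ± 0.30, adjusted p = 2.08e-07, and 0.0783 with all libraries).

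A few lipid synthesis genes were lower at 8 h in both fits. FASN, the fatty acid synthase, had 30.4, 28.1 and 29.2 rescaled TPM at 8 h, against 226, 321 and 206 in untreated libraries (-3.03 ± 0.90, adjusted p = 0.0398, and -3.40 ± 0.46 in the filtered fit). The 3 8 h libraries lay close together here. SREBF1, which drives fatty acid synthesis genes, had 5.203, 5.06 and 6.78 at 8 h and 34.5, 36.7 and 17.6 in untreated libraries. Its relative SREBF2, which drives cholesterol genes, had 6.91, 4.42 and 0 at 8 h and 31.5, 49.5 and 28.9 in untreated libraries. THRSP, a regulator of lipid synthesis, had 1.20, 1.65 and 0 at 8 h and 14.4, 12.1 and 7.58 in untreated libraries. All of these were called lower in both fits. Of the 17 fatty acid synthesis genes 3 were lower and 0 higher with all libraries and 5 lower and 1 higher in the filtered fit, where 24.5% of all genes were lower. Of 27 cholesterol genes 0 were higher and 1 lower with all libraries and 7 higher and 5 lower in the filtered fit. After the GC and length correction the filtered change of FASN was -0.63 (adjusted p = 0.0392) and that of SREBF2 -1.05 (adjusted p = 0.00229), and SREBF1 was no longer called (adjusted p = 0.187).

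Fatty acid oxidation genes did not move as a group, with 0 of 35 called with all libraries and 9 higher and 5 lower in the filtered fit, where 17.5% of all genes were higher and 24.5% lower. CPT1A, the gatekeeper of fatty acid entry into mitochondria, had 18.1, 20.7 and 0 rescaled TPM at 8 h and 18.5, 20.7 and 18.5 in untreated libraries. The second 8 h library lay in the untreated range, the first just under it, and the third was listed at 0. The filtered change was -0.35 ± 0.37 (adjusted p = 0.493). ETFA, an electron carrier of beta-oxidation, had 150, 495 and 45.4 at 8 h and 42.0, 22.7 and 44.1 in untreated libraries (filtered 2.56 ± 0.41, adjusted p = 1.24e-05, and 0.33 with all libraries). Glycolysis genes gave 8 higher and 3 lower of 26 in the filtered fit and 0 calls with all libraries.

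Several surface, matrix and growth factor genes were lower. MUC16, which encodes the tumour marker CA125, had 0.21, 0.53 and 0.37 rescaled TPM at 8 h, against 12.6, 26.4 and 7.79 in untreated libraries (-3.45 ± 0.98, adjusted p = 0.0304, and -3.59 ± 0.39 in the filtered fit). IGFBP5, a secreted binding protein of insulin-like growth factors, had 45.5, 51.4 and 34.5 at 8 h and 261, 446 and 165 in untreated libraries (-2.60 ± 0.58, adjusted p = 0.00501, with all libraries and -2.82 ± 0.41 in the filtered fit). IGF1 was at 0 in all 8 h libraries and at 7.31, 3.61 and 3.17 in untreated libraries, but 90.8% of its words also occur in other transcripts. COL5A1, a fibrillar collagen, had 3.37, 0.82 and 1.94 at 8 h and 32.4, 48.2 and 15.4 in untreated libraries (-3.39 ± 0.94, adjusted p = 0.0271, with all libraries and -3.60 ± 0.54 in the filtered fit). Of 13 genes of the IGF axis 2 were lower with all libraries and 7 in the filtered fit, with 0 higher in both. The shares of all genes called lower were 3.80% and 24.5%. After the GC and length correction the filtered counts were 2 higher and 3 lower, and MUC16 was not called (adjusted p = 0.206). Of 24 YAP and TGF-beta target genes 11 were lower and 3 higher in the filtered fit and 0 were called with all libraries. After the correction the filtered counts were 3 lower and 2 higher, against 16.9% of all genes lower and 20.5% higher there. CTGF among them had 9.12, 8.59 and 0 at 8 h and 64.6, 45.02 and 20.1 in untreated libraries. In bulk libraries fewer cells of a kind and less RNA per cell cannot be told apart.

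Between 24 h and 8 h of treatment few genes were called, and those lower at 24 h included 10 genes of mitosis. With all libraries 4 genes were higher (0.0219%) and 1 lower (0.00548%) at 24 h, 0.0274% of those tested in all. The filtered fit called 17 higher (0.0944%) and 22 lower (0.122%), 0.217% in all, and all values in this and the next paragraph are from that fit. None of the genes named in them was called with all libraries. Of the 35 G2 and mitosis genes 10 were called lower at 24 h and 0 higher, against 22 of all genes tested. CDC20, the activator of the anaphase-promoting complex, had 92.0, 76.9 and 68.0 rescaled TPM at 24 h, against 253, 348 and 116 at 8 h (-1.79 ± 0.23, adjusted p = 0.000131). CCNB1 had 144, 149 and 127 at 24 h and 345, 999 and 55.8 at 8 h (-1.95 ± 0.36, adjusted p = 0.00595). PLK1, a mitotic kinase, had 20.01, 19.2 and 16.96 at 24 h and 58.7, 65.9 and 7.96 at 8 h (-1.56 ± 0.28, adjusted p = 0.00594). BUB1, BIRC5, CCNA2, HMMR, KIF20A, DLGAP5 and PTTG1 were the other 7. In all 10 the second 8 h library had the highest value, and the first 8 h library also lay above all 24 h libraries. Their choice by the calls favours both. In 7 of the 10, namely CCNB1, PLK1, BUB1, BIRC5, HMMR, DLGAP5 and PTTG1, the third 8 h library, which this fit leaves out, was below all 24 h libraries.

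The genes higher at 24 h included feedback and stress genes. TXNIP, an inhibitor of thioredoxin, had 73.2, 72.4 and 69.3 rescaled TPM at 24 h, against 6.27, 9.77 and 0 at 8 h (3.12 ± 0.31, adjusted p = 1.07e-06). TNFAIP3, which encodes the NF-kB inhibitor A20, had 35.5, 24.6 and 39.6 at 24 h and 4.42, 3.83 and 0 at 8 h (2.76 ± 0.41, adjusted p = 0.000719). ATF3, a stress-induced transcription factor, had 66.0, 63.3 and 66.0 at 24 h and 9.13, 17.3 and 0 at 8 h (2.38 ± 0.44, adjusted p = 0.00626). GADD45A, a growth arrest gene, had 313, 257 and 336 at 24 h and 66.5, 118 and 56.8 at 8 h (1.87 ± 0.37, adjusted p = 0.0182). In all 4 genes every 24 h library lay above every 8 h library, which their choice by the calls favours. The interferon-induced IFIT2, the phosphatase subunit PPP1R15A, the growth factor HBEGF, the adhesion molecule ICAM1 and the phosphatase DUSP10 were also higher. Leaving the second 8 h library out of the filtered fit as well leaves 1 at 8 h, whose spread is taken from the other groups. Most calls were then lost, nearly all of the lower ones included. After the GC and length correction the filtered fit called 38 higher and 29 lower, with 12 of the G2 and mitosis genes lower.

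**Figure D5:**
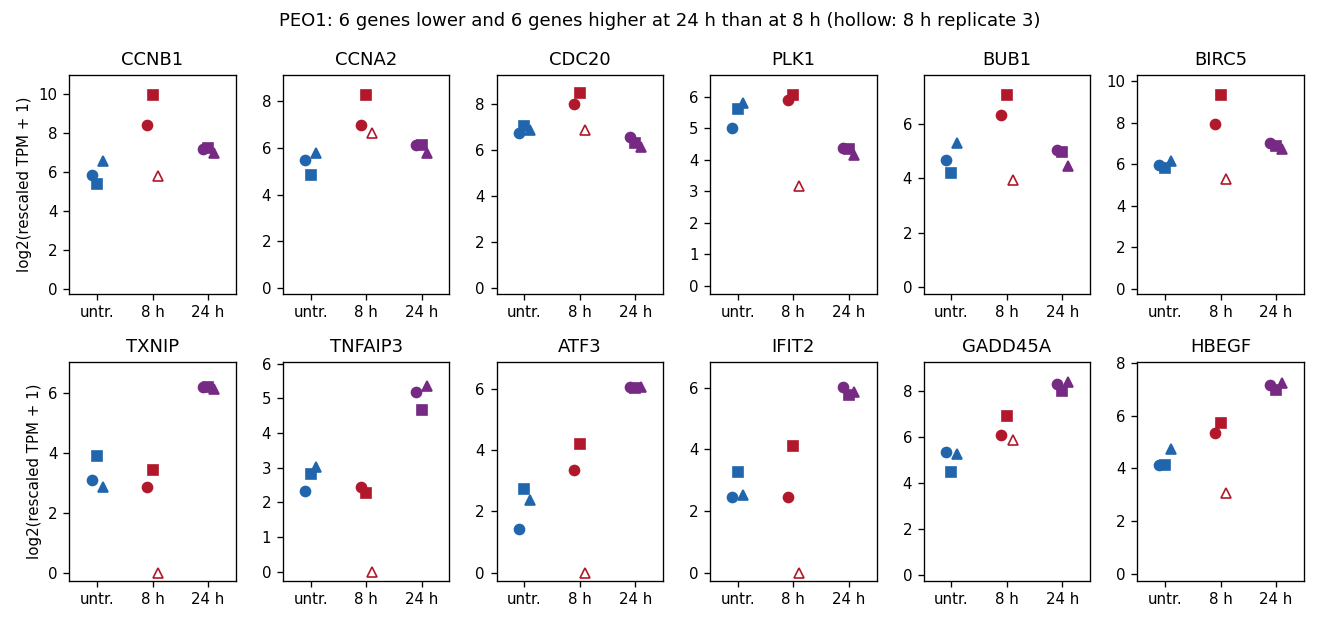
Levels of 12 genes in PEO1 as log2(rescaled TPM + 1) in untreated, 8 h and 24 h libraries, 1 symbol per library, with the third 8 h library hollow. The upper 6 genes were called lower and the lower 6 higher at 24 h than at 8 h in the filtered fit. In the lower 6 all 24 h libraries exceed all 8 h libraries, which their choice by the calls favours.

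The 8 h response of PEO1 was then set against that of PEO4, with a test of the difference between the 2 changes. With all libraries 50 genes differed (0.274%), 39 with a higher (0.214%) and 11 with a lower change in PEO1 (0.0602%). In the filtered fit 429 differed (2.38%), 294 with a higher (1.63%) and 135 with a lower change in PEO1 (0.749%). After the GC and length correction 139 differed in it (1.32%), 77 higher (0.734%) and 62 lower (0.591%). A model of PEO1 and PEO4 libraries alone called 2. The filtered fit also leaves out the third PEO4 8 h library, and the tests below are from it. None of the genes named below was called with all libraries, where the lowest adjusted p among them was 0.68. Many of the differences came from genes that PEO1 hardly expressed. IGF2 was at 0 in all 6 PEO1 libraries, while PEO4 had 1.59, 1.29 and 2.59 rescaled TPM at 8 h and 36.1, 33.1 and 4.59 untreated (filtered difference 3.45 ± 0.69, adjusted p = 0.00345). IGF1R, its receptor, was at or under 0.12 in the PEO1 8 h libraries and at or under 0.37 in the untreated ones, and in PEO4 it had 2.89, 3.29 and 5.61 at 8 h and 27.8, 44.9 and 15.5 untreated. Other genes were expressed in both lines. HBEGF, a ligand of the EGF receptor, had 39.1, 51.1 and 7.28 in PEO1 at 8 h and 16.4, 16.4 and 25.6 in untreated PEO1. In PEO4 it had 7.25, 5.09 and 5.09 at 8 h and 18.5, 11.8 and 7.72 untreated (2.27 ± 0.44, adjusted p = 0.00265). MUC16, given above for PEO1, had 3.83, 8.54 and 1.55 in PEO4 at 8 h and 318, 412 and 163 untreated (2.37 ± 0.55, adjusted p = 0.0151). Its PEO1 8 h values are all under the pseudocount of 1, which shrinks the change in PEO1, so this difference does not show a smaller fall in PEO1. TAGLN, an actin-binding protein of contractile cells, had 0, 1.18 and 22.8 in PEO1 at 8 h and 6.36, 7.56 and 3.74 untreated, and in PEO4 37.9, 86.9 and 47.8 at 8 h and 11.97, 6.87 and 10.01 untreated (-4.23 ± 0.57, adjusted p = 2.4e-05). TXNIP, low in PEO1 at 8 h, had 64.3, 56.4 and 0 in PEO4 at 8 h and 12.8, 11.7 and 13.2 untreated (-2.02 ± 0.44, adjusted p = 0.00902). None of the ribosomal protein, proteasome, histone or chromatin regulator genes was called different between the lines in the filtered fit, and of the oxidative phosphorylation genes COX7A2 was (adjusted p = 0.0425, and 0.0514 after the GC and length correction). This does not show equal changes. Median differences were -0.56 for ribosomal proteins, -0.38 for the proteasome, -0.56 for histones, -0.58 for oxidative phosphorylation and 0.27 for chromatin regulators, against 0.03 over all genes. After the correction they were -0.26, -0.23, -0.31, -0.41 and 0.007, against -0.002.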

How the data were processed

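RNA was sequenced in paired reads of 75 bases. The submitters' processing notes name bcl2fastq 2.18 and build hg19, and the sources used here do not give the aligner, annotation or strand setting. The authors deposited TPM in 1 table of 25435 genes, a unit without read depth, so counting error is unknown. An exact 0 may be a failed estimate, and such genes are said to be listed at 0. Near-identical genes and antisense genes are uncertain. The labels give a dose of 80 µM, which was used here, where the series text gives mM. Nothing says how far replicates differ beyond their culture number, so p-values measure the spread between these libraries.

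Each of the 54 libraries was divided by a scaling factor, its median ratio across 392 genes with no 0 in any of them (8287 genes and 42 libraries in the filtered fit). All rescaled TPM printed here use the factors from the 392 genes. Filtered changes rest on the other factors, so they can differ from what the printed values give. Genes reaching 1 TPM in 3 or more libraries were tested as log2(value + 1) with limma 3.58.1 in R 4.3.3, with a mean-variance trend, 18 groups in 1 model and Benjamini-Hochberg adjustment over all genes tested. Fold changes on this scale understate the change of low genes. The procedure was tested on simulated data. Transcript GC, length and the share of 75-base words found in transcripts of other genes came from a GRCh38 annotation, and promoters from RefSeq; neither gave coordinates for the deposited values.

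Named genes were the 12 largest rises and 12 largest falls called in both fits with a mean of at least 5 rescaled TPM, up to 4 called members of each list, and 11 genes named whatever their values; genes called between 24 h and 8 h or between lines, and the called ribosomal protein genes, were picked after their values were seen. The comparison, the lists and the rule were chosen with earlier results of these data known. The 8 h and 24 h libraries of a number share a culture number per the labels (correlations of their deviations 0.0126, 0.127 and 0.196), while 8 h and untreated libraries do not (-0.0219, -0.144 and -0.189). Same-numbered PEO1 and PEO4 8 h libraries deviated together (0.504, 0.571 and 0.688), their untreated libraries not in every pair (-0.0146, 0.262 and 0.27).
Some items are not reported here.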

Additional observations from a re-analysis of the deposited data

Results flagged for a closer look

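The change at 8 h differed between PEO1 and PEO4 for 50 genes with all libraries (0.274% of genes tested, limma, adjusted p under 0.05), by a test of the difference itself. Of these, 46 were also called in the filtered fit, but 5 of those 46 were coding genes with a mean of at least 5 rescaled TPM.

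SCG5, a secretory granule protein, had 20.2, 69.0 and 14.7 rescaled TPM in PEO1 at 8 h and 0, 3.52 and 2.39 in untreated PEO1. In PEO4 it had 2.06, 0 and 0 at 8 h and was listed at 0 in all untreated libraries (difference 2.98 ± 0.66, adjusted p = 0.0218). CCR10, a chemokine receptor, had 2.25, 9.18 and 43.9 in PEO1 at 8 h and 2.71, 7.89 and 1.59 untreated, against 1.02, 0 and 0 in PEO4 at 8 h and 4.58, 8.76 and 7.67 untreated (3.996 ± 0.95, adjusted p = 0.0495). Its highest value was in the third PEO1 8 h library. The other 3 were low in PEO1. FAM101A was listed at 0 in all PEO1 8 h libraries and at 0, 1.46 and 0 untreated, and in PEO4 had 0, 2.78 and 22.5 at 8 h and 114, 99.1 and 134 untreated (4.27 ± 0.89, adjusted p = 0.0114). GREB1, an oestrogen-regulated gene, was at or under 0.24 in PEO1 at 8 h and had 1.38, 0.48 and 0.41 untreated, and in PEO4 had 3.14, 0.67 and 0 at 8 h and 10.7, 31.5 and 11.5 untreated (2.54 ± 0.60, adjusted p = 0.043). TNNI2, a troponin, was at 0 in PEO1 at 8 h and had 5.21, 1.68 and 0 untreated, and in PEO4 had 3.95, 0 and 0 at 8 h and 32.4, 61.5 and 19.8 untreated (3.01 ± 0.67, adjusted p = 0.0218).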

How the results depend on the processing

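The count for 8 h against untreated, 816 with all libraries, was 7551 without libraries listing fewer than 12000 genes, 4309 when the second 8 h library was left out too, 1652 with PEO1 libraries alone in the model, 465 with a pseudocount of 0.1 and 4404 without rescaling (8915 filtered). It was 86 after correction for GC and length (3916 filtered), and 0 with the 6 compared libraries alone, where limma gave 2650 genes at an unadjusted p under 0.05. Leaving out 1 library gave 333 to 710. The count for 24 h against 8 h, 5, was 39 in the filtered fit, 1 with PEO1 libraries alone, 17 without rescaling (163 filtered), 2 with a pseudocount of 0.1, 22 without a filter on low values and 0 with TPM of at least 5 (863 at an unadjusted p under 0.05). It was 0 after the GC and length correction (640 unadjusted) and 67 in its filtered form, and leaving out 1 library gave 1 to 35. The count for PEO1 against PEO4, 50, was 429 filtered, 344 without the second 8 h library as well, 2 with PEO1 and PEO4 alone, 126 without rescaling (393 filtered), 18 with a pseudocount of 0.1, 79 without a filter and 18 with TPM of at least 5. It was 0 after the correction (240 unadjusted) and 139 in its filtered form, and 41 to 56 with 1 library left out.

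With the replicate number as a block the counts were 767, 6 and 44, and 53 with a replicate block shared by the lines, whose 8 h libraries of a number deviated together. Same-numbered 8 h and untreated libraries share only a number. Of 50 named genes called with all libraries, the 12 largest rises and 12 largest falls were chosen as called in both fits. Of the 50, 50 were called in the filtered fit and 23 to 42 with 1 library left out. After the correction 15 were called and 33 were not with all libraries, and 38 were and 9 were not in its filtered form. The rest were not tested there. With the 6 compared libraries alone 0 were called and 48 were not. MT1E, at -1.01 with all libraries, was 1.97 filtered, 1.52 without the second 8 h library too, and -3.07 to 2.33 with 1 library left out, and ERCC1, at 1.25, was -2.11 filtered without rescaling. Limma's array weights stopped before convergence and gave no value. With TPM alone, the depth that limits low genes is unknown. Where not said otherwise, the cause of a changed count was not tested.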
